A study of Mus musculus with 6 samples.

Results

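The genes described here are 10 genes around mTORC1, the protein kinase complex that drives protein synthesis and cell growth. They are the sestrins Sesn1, Sesn2 and Sesn3, the stress-induced brake Ddit4, the inhibitory subunit Deptor, the TSC complex genes Tsc1 and Tsc2, the GTPase Rheb, and the kinase and scaffold genes Mtor and Rptor. They were chosen by symbol, with earlier results of these data known, and all 10 were among the 17067 genes of the count table. Their RNA levels were measured in cultured primary endothelial cells from the aorta of wild-type (WT) C57BL/6 mice, with 3 samples from mice infused with saline and 3 from mice infused with angiotensin II (AngII), the hormone that constricts vessels and raises blood pressure. Every mouse was 8 weeks old and carried a pump under the skin for 14 days, which delivered either AngII at 1000 ng per kg per minute or saline. The cells of both groups then grew out of 2 mm aortic pieces on Matrigel from days 5 to 7, in medium with 20% fetal calf serum, heparin and endothelial growth factor, so they were cultured between the infusion and the measurement. The labels do not say whether the 3 samples of a group came from separate mice or cultures, so the p-values below reflect the spread among these 6 samples alone and part of it may be technical.

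mTORC1 sits on the lysosome and is switched on when amino acids and growth factors are both present. Amino acids act through the Rag GTPases, which the GATOR complexes control, and sestrins bind GATOR2 and hold the kinase off, Sesn1 and Sesn2 being released by leucine. Growth factors act through Rheb, which activates the kinase directly and which the TSC complex keeps inactive. Stress reaches this circuit through transcription of the brakes: ATF4 and p53 induce Sesn2 and Ddit4, p53 induces Sesn1, FoxO factors induce Sesn1 and Sesn3, and hypoxia and glucocorticoids induce Ddit4. In endothelial cells the pathway is known for its part in growth, sprouting and nutrient use.

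The promoters of 4 of these genes are shown as examples of each outcome: Rheb and Sesn3 rose, Ddit4 fell and Sesn2 did not pass the test. The windows are the 250 bases before the RefSeq start of each gene on GRCm38.p6, and 9 of the 10 genes had at least 1 such window. Capitals mark matches, on either strand, to the E-box CACGTG, to ACGTG, the core of the hypoxia response element, or to the GC box GGGCGG.
Rheb: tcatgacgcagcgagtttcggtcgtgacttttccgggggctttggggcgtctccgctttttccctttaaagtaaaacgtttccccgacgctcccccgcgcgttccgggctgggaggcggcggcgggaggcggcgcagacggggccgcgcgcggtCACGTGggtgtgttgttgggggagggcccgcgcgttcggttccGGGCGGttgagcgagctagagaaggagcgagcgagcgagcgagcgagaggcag
Sesn3: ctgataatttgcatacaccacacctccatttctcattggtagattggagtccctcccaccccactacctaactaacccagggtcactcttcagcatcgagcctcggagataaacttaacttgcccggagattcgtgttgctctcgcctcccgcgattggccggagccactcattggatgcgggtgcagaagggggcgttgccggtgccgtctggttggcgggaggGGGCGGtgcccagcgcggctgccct
Ddit4: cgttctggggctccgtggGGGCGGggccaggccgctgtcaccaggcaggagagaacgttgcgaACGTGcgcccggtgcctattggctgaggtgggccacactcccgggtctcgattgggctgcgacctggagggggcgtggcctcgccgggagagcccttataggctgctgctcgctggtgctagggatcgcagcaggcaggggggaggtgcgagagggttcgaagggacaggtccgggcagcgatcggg
Sesn2: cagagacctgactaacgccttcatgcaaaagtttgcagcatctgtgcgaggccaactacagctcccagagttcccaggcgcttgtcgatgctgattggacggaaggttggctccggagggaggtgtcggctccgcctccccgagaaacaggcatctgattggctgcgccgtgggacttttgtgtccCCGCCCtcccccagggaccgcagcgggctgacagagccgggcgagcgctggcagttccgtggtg
These windows lie at chr5:24842362-24842611 on the minus strand for Rheb, chr9:14276051-14276300 on the plus strand for Sesn3, chr10:59951771-59952020 on the minus strand for Ddit4, and chr4:132510457-132510706 on the minus strand for Sesn2. By the gene coordinates given below (GENCODE M21), the Rheb and Sesn3 windows lie wholly inside the gene, downstream of its annotated start. Those of Ddit4 and Sesn2 overlap the annotated start. The RefSeq starts used for the windows thus differ from that annotation. The Rheb window held the E-box from 96 to 91 bases before the RefSeq start. This E-box contains ACGTG on both strands, and E-boxes were found in 6.02% of all 32851 promoter windows of this length. The Ddit4 window held ACGTG from 187 to 183 bases before the RefSeq start, a match found in 16.6% of windows. Of the 4 windows shown, each held the GC box, which 32.7% of all windows hold. Among the genes with windows not shown, Sesn1 and Mtor held the GC box, and Tsc1, Tsc2 and Rptor did not. The Rptor window also held ACGTG. The ATF4 composite element was searched as TGATGNAA (3.45% of windows) and the FoxO element as GTAAACA (3.17% of windows), and neither string was present in the window of any of the 9 genes. A match describes letters only, and the lack of one says nothing about sites elsewhere in the gene.

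Total counts were between 21154724 and 23004780 in the saline samples and between 22646065 and 25141992 in the AngII samples. Of the endothelial markers, 11 of 12 were in the table and all 11 were expressed, with Pecam1 at 1846 ± 19.3 and 1919 ± 93.4 CPM (counts relative to the library total, with TMM scaling; mean ± SD, n = 3) in saline and AngII, while Vwf was low, at 10.7 ± 0.140 and 8.12 ± 1.36 CPM. Of these 11, 4 were higher and 5 lower with AngII in edgeR, where 29.0% of all tested genes were higher and 28.6% lower. Their summed level was 6250 to 6305 CPM in saline and 6165 to 6744 CPM in AngII. Marker sums of most other cell types differed between the groups. The summed level of 8 smooth muscle markers was 89.6 to 91.5 CPM in saline and 108 to 112 CPM in AngII, nearly all of it Smtn, and 5 of the 8, Acta2 among them, stayed below 1 CPM in every sample. Of the 3 that were tested, Smtn was higher (log2 fold change 0.32) and Myh11 (-2.35) and Des (-3.31), both under 2 CPM, were lower in edgeR. Fibroblast markers (7 in the table) summed to 10.8 to 12.0 and 18.7 to 21.5 CPM with 4 below 1 CPM throughout. Lymphatic endothelial markers (5) summed to 219 to 225 and 314 to 351 CPM with Prox1 below 1 CPM, and 2 of the 5 stayed below 1 CPM throughout. Mesothelial and epithelial markers (7) summed to 4.57 to 5.29 and 2.31 to 2.90 CPM with 5 below 1 CPM throughout. Adipocyte markers (2) summed to 8.03 to 9.88 and 14.3 to 18.6 CPM with 1 below 1 CPM throughout, so the sum was nearly all 1 gene. Macrophage markers (6) summed to 271 to 275 and 264 to 280 CPM, with 4 of the 6, Ptprc among them, below 1 CPM in every sample. The part of these cells in the results below was not tested.

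The genes around mTORC1 moved little. Of the 10, all of which were tested, Rheb and Sesn3 were higher with AngII, Ddit4, Tsc1 and Tsc2 were lower, and Sesn1, Sesn2, Deptor, Mtor and Rptor did not pass edgeR's quasi-likelihood test at an adjusted p of 0.05. Thus 5 of 10 passed, against 57.6% of all 12277 genes tested; 2 were higher (29.0% of all genes) and 3 lower (28.6%), shares near or below the background. The 3 AngII samples were all above the 3 saline samples for 2 genes (Rheb and Sesn3) and all below for 2 (Ddit4 and Tsc1), and 6 overlapped, while over all tested genes 62.7% did not overlap, 31.3% above and 31.4% below. The differences were small beside those of other genes, with a median absolute log2 fold change of 0.077 against 0.19 over all genes tested, and a range from -0.13 to 0.24. The 10 genes were chosen with earlier results of these data known, and the 2 sets were not matched on level. Median log2 fold changes were near 0 in both, at -0.0027 for the 10 genes and 0.00009 for all. In samples of bulk RNA, fewer cells of a type and less RNA per cell cannot be told apart.

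**Figure D1:**
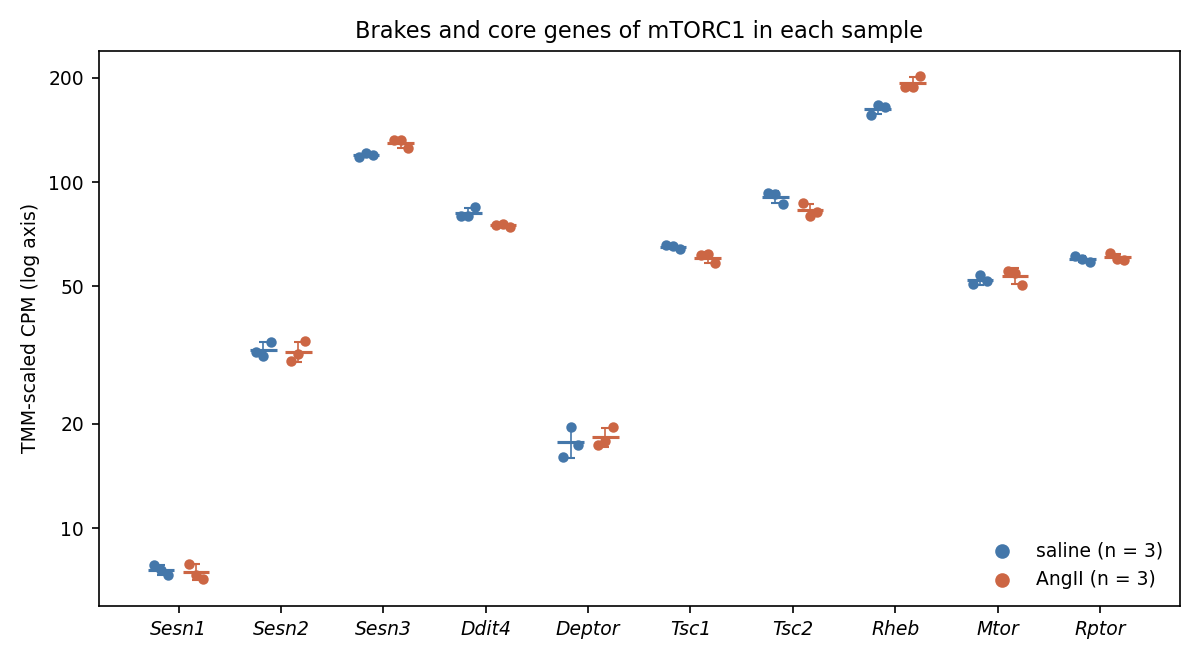
TMM-scaled CPM (log axis) of the 10 genes in each of the 3 saline (blue) and 3 AngII (orange) samples; points are samples, horizontal bars group means and whiskers the SD. The groups separate for Rheb, Sesn3, Ddit4 and Tsc1, and the other 6 genes overlap.

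The 3 sestrins are close relatives that share the GATOR2-binding fold, and Sesn2 is the form best known from stress. Sesn2 (chr4:132492032-132510501, GRCm38) read 32.3, 31.5 and 34.6 CPM in saline replicates 1 to 3 and 30.4, 31.8 and 34.6 CPM in AngII replicates 1 to 3. The groups overlapped over nearly their whole range. The log2 fold change was -0.022 ± 0.0578 (SE; edgeR adjusted p = 0.765), with a 95% interval from 0.906-fold to 1.07-fold, and 93.5% of tested genes had a larger absolute difference. When the dependence of each library on transcript GC and length was taken out (below, GC and length correction), an alternative chosen after seeing the data, the log2 fold change of Sesn2 was 0.14 (adjusted p = 0.0685 in edgeR). The direction of Sesn2 therefore depended on that setting, and it also turned to 0.020 without saline replicate 3 and to 0.018 without AngII replicate 1.

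Sesn1, the p53-induced sestrin (chr10:41809935-41908424), was the lowest of the 10 genes, with 165 to 188 counts per sample. It read 7.81, 7.57 and 7.33 CPM in saline and 7.89, 7.34 and 7.12 CPM in AngII. The ranges overlapped, and the log2 fold change was -0.022 ± 0.0901 (SE; edgeR adjusted p = 0.848), with a 95% interval from 0.864-fold to 1.12-fold. Its interval was the widest of the 10 genes.

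Sesn3, the FoxO-induced sestrin (chr9:14275067-14333101), was the sestrin that rose. It read 118, 121 and 120 CPM in saline and 133, 132 and 125 CPM in AngII. Each AngII sample was above each saline sample, with AngII replicate 3 nearest to them. The difference was 1.08-fold (log2 fold change 0.12 ± 0.0338, SE; edgeR adjusted p = 0.00651; 95% interval 1.03-fold to 1.14-fold), and it passed under all 14 alternatives tried. In 66.8% of tested genes the absolute difference was larger than this.

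Levels of the 3 sestrins were compared per kb of annotated exons, since CPM rises with transcript length. Summed sestrin transcripts were 19.2 ± 0.392 CPM per kb in saline and 19.7 ± 0.261 in AngII (SD, n = 3 each; exact two-sided permutation p = 0.2, where 0.1 is the smallest that 3 against 3 can give). Sesn2 made up 48.9%, 47.9% and 50.7% of that sum in saline replicates 1 to 3 and 45.1%, 46.6% and 49.9% in AngII replicates 1 to 3 (difference in mean -1.96 percentage points; exact two-sided permutation p = 0.3). The shares overlapped between the groups, and the difference was -0.90 points without AngII replicate 1 and -3.32 points without AngII replicate 3. Which sestrin was most abundant depended on the length used. By exons, Sesn2 averaged 47.2% and Sesn3 43.3% in AngII. By coding length Sesn2 averaged 19.6% and Sesn3 76.7%, because 15269 bases of exon are annotated for Sesn3 and only 1476 are coding. Per kb of the longest transcript Sesn3 also stood first in AngII, at 14.2 ± 0.459 CPM against 9.30 ± 0.611 for Sesn2. By coding length the sum was 108 ± 1.12 in saline and 115 ± 1.62 CPM per kb in AngII (SD, n = 3; exact permutation p = 0.1). Sesn1 had the smallest share by either length, 9.91% and 3.98% in saline.

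**Figure D2:**
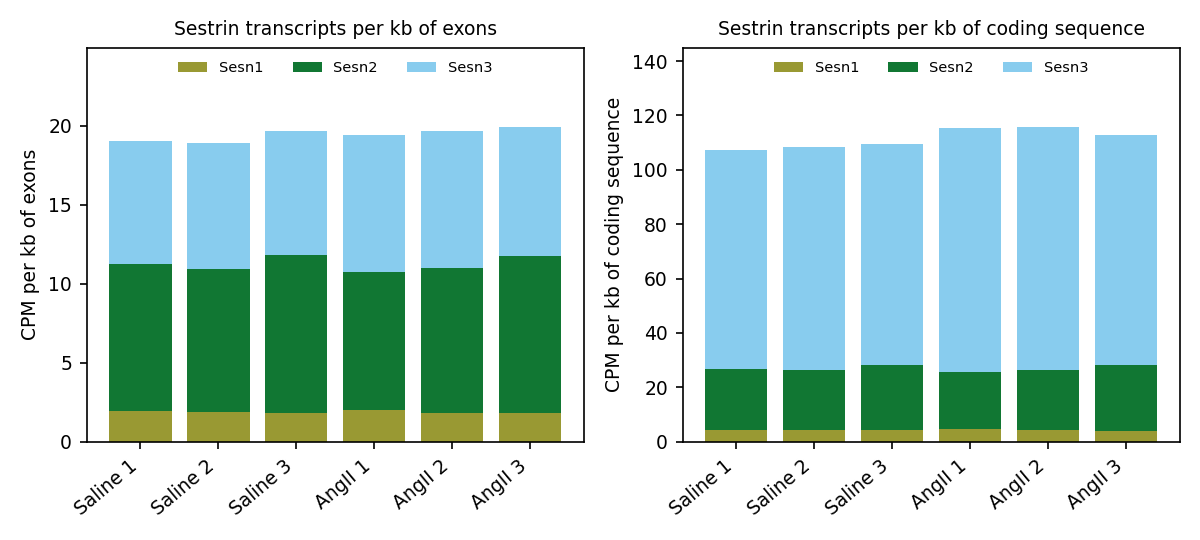
Stacked bars of Sesn1, Sesn2 and Sesn3 in each sample, in CPM per kb of annotated exons (left) and per kb of coding sequence (right). Sesn2 is the largest part on the left and Sesn3 on the right, and the summed level lies between 18.9 and 19.9 on the left.

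Ddit4 encodes REDD1, which frees TSC2 to switch Rheb off under hypoxia, energy stress and glucocorticoids. Ddit4 (chr10:59949669-59951834) read 79.6, 79.9 and 84.5 CPM in saline and 75.3, 75.8 and 74.3 CPM in AngII. The AngII samples were all below the saline samples, and saline replicate 3 stood highest. Ddit4 was 1.08-fold lower (log2 fold change -0.12 ± 0.0364, SE; edgeR adjusted p = 0.0112), a call that was lost without saline replicate 3 (-0.085, adjusted p = 0.0678 in edgeR) and with the GC and length correction (-0.017, adjusted p = 0.667). Its relative Ddit4l, which encodes REDD2, another inhibitor of mTORC1, moved much further: it read 16.8, 16.1 and 17.3 CPM in saline and 7.01, 7.07 and 8.32 CPM in AngII, 2.23-fold lower (edgeR adjusted p = 1.1e-09).

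Deptor, which binds mTOR and restrains both of its complexes, did not pass. Deptor (chr15:55112317-55259271) read 16.1, 19.6 and 17.4 CPM in saline and 17.4, 17.8 and 19.6 CPM in AngII. Its saline samples spanned nearly the whole range of both groups, and the log2 fold change was 0.049 ± 0.0756 (SE; edgeR adjusted p = 0.602; 95% interval 0.927-fold to 1.15-fold).

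The TSC complex is the tumour suppressor complex that turns Rheb off, with Tsc1 as its stabilising and Tsc2 as its catalytic subunit, and both were slightly lower with AngII. Tsc1 (chr2:28641228-28691167) read 65.7, 65.5 and 64.0 CPM in saline and 61.5, 61.9 and 58.2 CPM in AngII, and the groups did not overlap. Its log2 fold change was -0.11 ± 0.0383 (SE; edgeR adjusted p = 0.0252), and the call was lost in DESeq2 (adjusted p = 0.0828), without the filter on low counts (0.0547), and without saline replicate 1 (0.0689), saline replicate 2 (0.0731) or AngII replicate 3 (0.116). Tsc2 (chr17:24595816-24632630) read 92.9, 92.3 and 86.4 CPM in saline and 87.0, 79.5 and 81.8 CPM in AngII. Saline replicate 3 lay just below AngII replicate 1, so the Tsc2 groups overlapped. The log2 fold change of Tsc2 was -0.13 ± 0.0406 (SE; edgeR adjusted p = 0.0113), and its call was lost with the GC and length correction (-0.057, adjusted p = 0.160), and without saline replicate 1 (0.0539), saline replicate 2 (0.0533) or AngII replicate 2 (0.0742). Exons of Tsc2 share 693 annotated bases with Pkd1 on the opposite strand, and 4 of its 6 deposited values had fractions. Whether reads were divided between these genes was not tested. The TSC gene that rose was Tbc1d7, the third subunit, at a low level (3.76 ± 0.442 to 4.97 ± 0.372 CPM, n = 3; log2 fold change 0.40; edgeR adjusted p = 0.00964), a call lost without saline replicate 1.

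Rheb, the GTPase that the TSC complex restrains, changed the most of the 10 genes. Rheb (chr5:24802823-24842624) read 156, 167 and 165 CPM in saline and 188, 188 and 203 CPM in AngII. The lowest AngII sample stood well above the highest saline sample. Rheb was 1.18-fold higher (log2 fold change 0.24 ± 0.0368, SE; edgeR adjusted p = 1.6e-05; 95% interval of the log2 fold change 0.17 to 0.32), and the call held under all 14 alternatives. A larger absolute difference was seen in 39.9% of tested genes. Its paralog Rhebl1, named after its values were seen, at 10.1 ± 1.21 and 8.66 ± 0.719 CPM (n = 3), did not pass (log2 fold change -0.23; edgeR adjusted p = 0.0512), but was called lower under 6 of its 14 alternatives, among them both other scalings and the comparisons without saline replicate 1 or AngII replicate 1.

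Mtor, the kinase itself, and Rptor, the scaffold that brings it substrates, did not pass. Mtor (chr4:148448611-148557683) read 50.6, 53.9 and 51.8 CPM in saline and 55.4, 54.7 and 50.3 CPM in AngII, and the AngII samples held both its highest and its lowest value. Rptor (chr11:119602905-119899576) read 61.2, 59.8 and 58.8 CPM in saline and 62.4, 59.9 and 59.6 CPM in AngII, and these ranges overlapped too. The 95% intervals ran from 0.960-fold to 1.09-fold for Mtor and from 0.957-fold to 1.07-fold for Rptor, and edgeR's adjusted p was 0.518 and 0.732. With the GC and length correction, both passed upward, Mtor at a log2 fold change of 0.14 (edgeR adjusted p = 0.00822) and Rptor at 0.13 (0.00345).

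The GC and length trend bears on changes of this size. Over 11800 tested genes with a sequence, log2 fold changes fell with transcript GC content, with a Spearman correlation of -0.20 across genes, which are not independent replicates. The median log2 fold change was 0.069 in the lowest of 5 GC bins of about equal size and -0.10 in the highest. The 2 genes that rose have transcripts at 44.7% (Rheb) and 45.0% GC (Sesn3), as is that of Deptor (44.3%), which did not pass, while Ddit4 is at 57.9%, Sesn2 at 58.7%, Rptor at 56.5%, Tsc2 at 54.7% and Mtor at 54.2%. Without the trend, 4 of the 10 were higher (Rheb, Sesn3, Mtor and Rptor) and 1 lower (Tsc1), against 2 and 3 with it. Over all genes 31.7% were then higher and 26.5% lower. Whether the trend is technical was not tested.

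**Figure D3:**
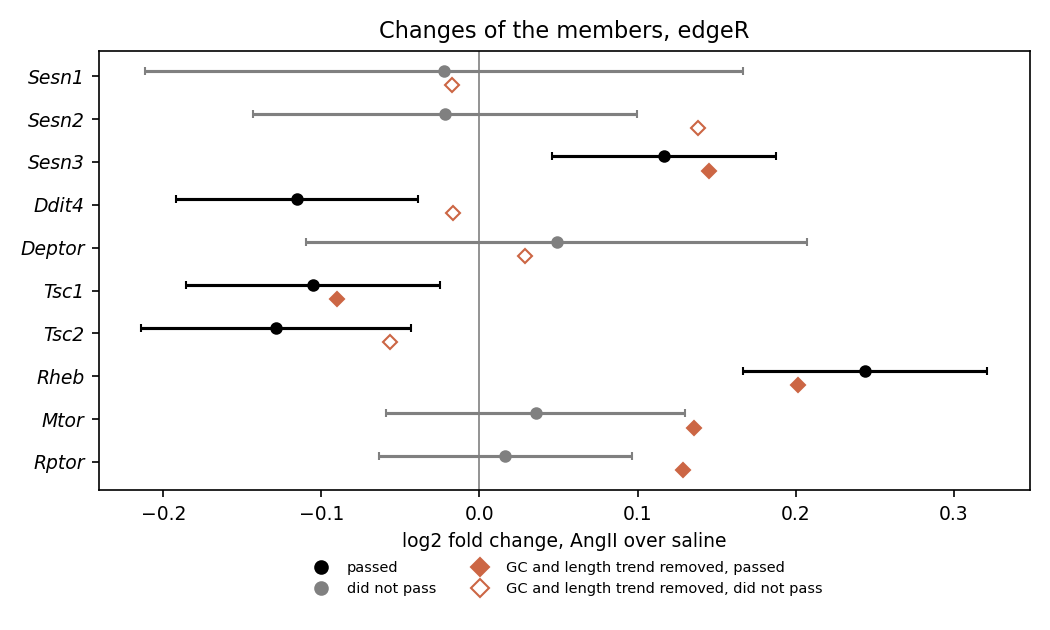
Log2 fold change of AngII over saline for the 10 genes; circles with 95% intervals are edgeR's values (black passed, grey did not), and diamonds the values with the GC and length correction (filled passed). Rheb, Sesn3 and Tsc1 passed both ways, and Ddit4, Tsc2, Mtor and Rptor changed sides of the threshold.

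Ordered by level per kb of exons in saline, Ddit4 stood highest at 46.3 ± 1.58 CPM per kb, followed by Rheb at 21.1 ± 0.738 (SD, n = 3). Sesn2 (9.44 ± 0.463), Tsc2 (9.41 ± 0.371) and Sesn3 (7.85 ± 0.0986) came next, the first 2 of them within their spread of each other. Tsc1 (5.50 ± 0.0761), Mtor (5.15 ± 0.165) and Rptor (4.45 ± 0.0914) followed. Deptor (1.99 ± 0.202) and Sesn1 (1.90 ± 0.0612) were lowest and did not differ beyond their spread. In AngII the order was the same except that Mtor (5.29 ± 0.276) and Tsc1 (5.11 ± 0.174) changed places, also within their spread. The order rests on annotated lengths, and by coding length Rheb stood first in both groups.

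The rest of the pathway was looked at in 7 lists with 80 tested genes, which were chosen with earlier results of these data known. In them 25 genes were higher and 21 lower, together 57.5%, beside the 57.6% of all genes given above, and the median log2 fold change was -0.013. Among the other mTOR complex subunits and their assembly factors 3 of 9 rose and 1 fell (median 0.046), where 29.0% of all genes rose and 28.6% fell. The complex 2 subunits Mapkap1 (0.23) and Prr5 (0.36) and the mTORC1 inhibitor Akt1s1, which encodes PRAS40 (0.17), rose, and Mlst8, the subunit common to both complexes, fell by 0.25 on the log2 scale. The Akt1s1 call was lost without saline replicate 1, saline replicate 2 or AngII replicate 3.

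The GATOR and KICSTOR genes, which relay the sestrin signal to the Rag GTPases, were listed with 3 sensors of arginine or S-adenosylmethionine. In this list 8 of 15 rose and 1 fell, with a median log2 fold change of 0.11, where 29.0% of all genes rose and 28.6% fell. Among the 3 sensors 1 rose and 1 fell. The GATOR2 genes, whose products sestrins bind, rose in 4 of 5: Mios rose from 13.3 ± 0.616 to 17.4 ± 0.629 CPM (n = 3; log2 fold change 0.38; edgeR adjusted p = 0.0001), while Seh1l (0.13), Wdr59 (0.18) and Sec13 (0.11), chosen after their values were seen, each lost the call under 3 to 6 of the 14 alternatives. Nprl3, a GATOR1 subunit, rose by 0.32, and Kics2, a KICSTOR subunit, by 0.47. Bmt2, which encodes the sensor of S-adenosylmethionine, fell from 66.3 ± 2.43 to 49.3 ± 0.473 CPM (log2 fold change -0.43; edgeR adjusted p = 3.9e-08). DESeq2 called 4 of these 15 genes higher, near its share of 24.5% over all genes, where edgeR called 8, and the count was 5 without saline replicate 1 or 3 and 4 without AngII replicate 2.

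At the lysosome, 3 of 12 genes of the Rag, Ragulator and folliculin group rose and 4 fell (median log2 fold change -0.066). For this list and the next, the shares over all tested genes were 29.0% higher and 28.6% lower. The Ragulator subunits, which anchor the Rag GTPases, differed in sign: Lamtor1 (0.36) and Lamtor3 (0.23) rose and Lamtor4 (-0.62) fell. Rragb, a Rag GTPase, rose by 0.22, and Flcn (-0.27) and Fnip2 (-0.16), whose products activate RagC and RagD, fell. Of the AMPK and LKB1 genes, the energy sensor that restrains mTORC1, 4 of 11 rose and 3 fell. The catalytic subunit gene Prkaa2 fell from 49.1 ± 1.84 to 28.7 ± 0.293 CPM (n = 3; log2 fold change -0.78; edgeR adjusted p = 1.2e-10), while the scaffold subunit Prkab2 rose from 9.68 ± 0.398 to 15.4 ± 0.288 CPM (0.67). Strada (0.48) and Cab39l (0.23), which activate LKB1, rose, and Prkag1 (-0.15) and Stk11 (-0.23), the LKB1 gene, fell. The Stk11 call was lost with the GC and length correction (edgeR adjusted p = 0.320), and that of Prkag1 without saline replicate 3.

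In the PI3K and AKT list, the growth factor arm, 1 of 12 rose and 5 fell (median log2 fold change -0.088). Here and for the substrates below, the shares over all tested genes were 29.0% higher and 28.6% lower. The PI3K genes Pik3cb (-0.61) and Pik3r3 (-0.61) and the kinase gene Akt1 (-0.18) fell. Akt1 did not pass with the GC and length correction (edgeR adjusted p = 0.298), where 2 of the 12 were higher and 3 lower, and 3 were lower without saline replicate 1. Of 18 genes for substrates of mTORC1 and their partners 5 rose and 6 fell (median -0.024). Eif4e, which binds the messenger cap, rose by 0.37, its inhibitor Eif4ebp1 by 0.21 and Mitf, a lysosomal and pigment cell factor, by 0.67. Ulk1, the kinase that starts autophagy, read 75.9, 72.1 and 75.4 CPM in saline and 35.8, 34.0 and 33.4 CPM in AngII, 2.17-fold lower (edgeR adjusted p = 2.2e-13). Lpin1, a phosphatidate phosphatase that mTORC1 keeps out of the nucleus, was 1.99-fold lower (111 ± 0.851 to 55.7 ± 2.55 CPM, n = 3), and Eif4b fell by 0.24 on the log2 scale. Ulk1 and Lpin1 thus differed far more between the groups than any of the 10 genes around the kinase. Of the 80 genes, 3 differed by at least 2-fold (Ddit4l, Ulk1 and Eif4ebp3, the last at no more than 1.41 CPM and named after its values were seen), and all 3 were lower. The Eif4ebp3 call was lost without saline replicate 1.

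**Figure D4:**
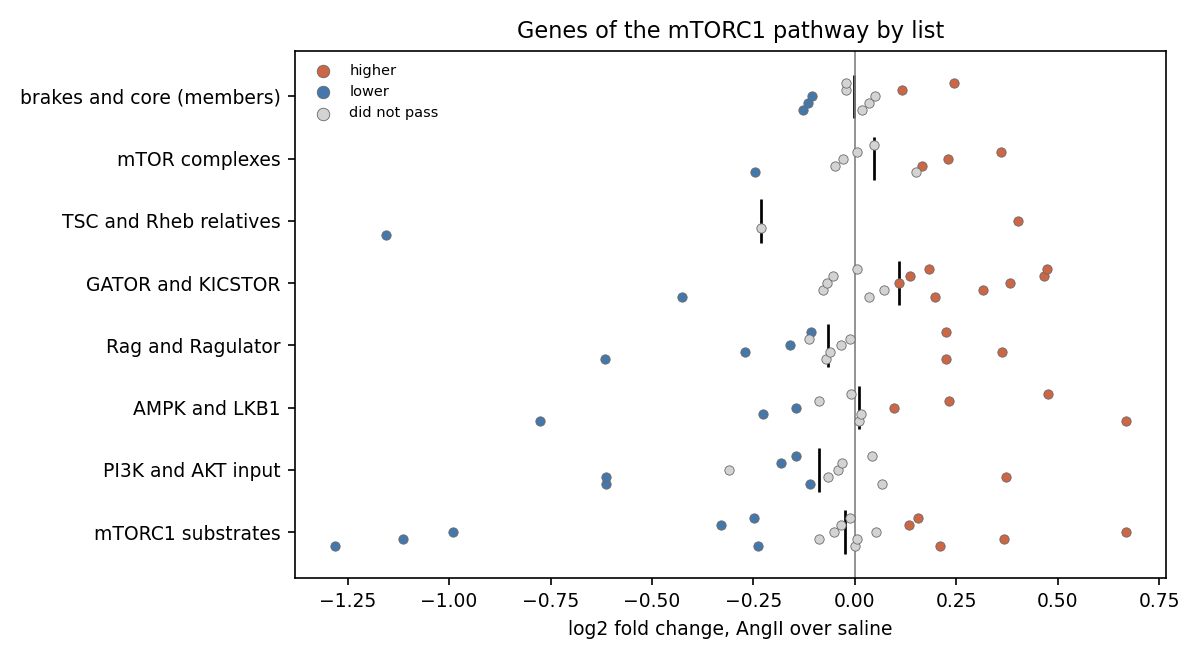
Log2 fold change of AngII over saline for each tested gene of the 10 described genes and of 7 pathway lists; black bars are medians and colours show which genes passed. The 10 genes lie between -0.13 and 0.24, and the lists reach from -1.28 to 0.67.

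The 21 genes listed as regulators of the brakes, inducers and opposing genes together, had a median absolute log2 fold change of 0.21. This was near the 0.19 of all tested genes, beside 0.077 for the 10 genes, and the difference was not tested. Of these 21, all tested, 8 were higher, 11 lower and 2 did not pass. Over all tested genes 29.0% were higher and 28.6% lower. Among the genes of the integrated stress response is Atf4, whose product induces Sesn2 and Ddit4. Atf4 read 271, 267 and 291 CPM in saline and 425, 456 and 489 CPM in AngII, 1.65-fold higher. Ddit3 (0.98), Nupr1 (1.09) and Trib3 (1.12), an AKT-binding pseudokinase, rose with it on the log2 scale and Cebpb fell by 0.92.

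For p53, which induces Sesn1 and Sesn2, the factor gene Trp53 was 1.14-fold lower and its target and ligase Mdm2 1.90-fold lower (edgeR adjusted p = 3.5e-05 and 8.8e-13). Of the FoxO genes Foxo1 did not pass (0.044), Foxo3 fell (-0.12), Foxo4 rose (0.13) and Foxo6, near 1 CPM, fell (-0.88), the last 3 calls each lost under 2 to 4 of their alternatives. The list of other FoxO targets fell in 9 of 12 and rose in 3, with a median log2 fold change of -0.21, where 28.6% of all genes fell and 29.0% rose. Klf2 (-0.73), Txnip (-0.64) and Trp53inp1 (-0.61) fell and Fbxo32 (0.41), Bnip3 (0.31) and Irs2 (0.20) rose, while Sesn3, also a FoxO target, was 0.12 higher. Irs2 lost its call in DESeq2 and without saline replicate 2 or 3 or AngII replicate 1 or 3.

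For hypoxia, which induces Ddit4, Hif1a read 420, 400 and 416 CPM in saline and 494, 501 and 506 CPM in AngII, 1.21-fold higher. Its partner Arnt fell by 0.33 on the log2 scale, and Epas1 was 0.14 higher (edgeR adjusted p = 0.0451), a call lost under 9 of 14 alternatives. The glucocorticoid receptor gene Nr3c1 was slightly lower (-0.11; edgeR adjusted p = 0.00694). Of 6 tested glucocorticoid targets 2 rose, Sgk1 (0.35) and Tsc22d3 (0.31), and 2 fell, Cebpd (-0.30) and Per1 (-0.19). The Per1 call was lost with the GC and length correction (edgeR adjusted p = 0.909). Shares over all tested genes were 29.0% higher and 28.6% lower.

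**Figure D5:**
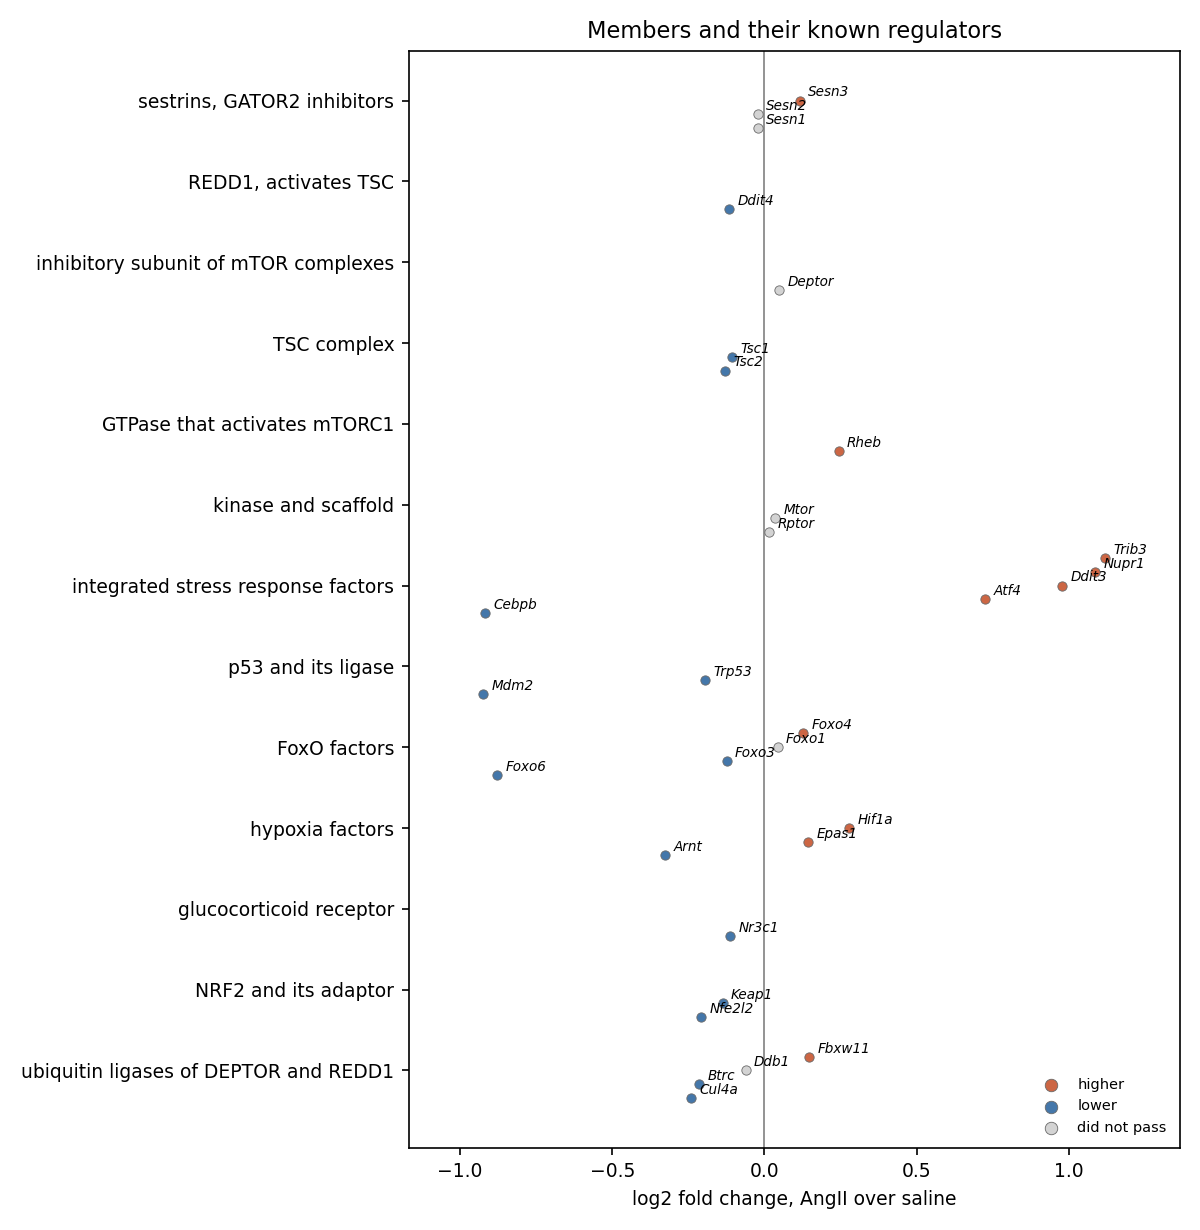
Log2 fold change of AngII over saline for the 10 genes and for 21 genes of their known regulators, grouped by role; orange points were higher, blue lower and grey did not pass. The integrated stress response genes Atf4, Ddit3, Nupr1 and Trib3 lie from 0.73 to 1.12 and Cebpb at -0.92. The sestrins and Ddit4 lie between -0.12 and 0.12.

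Turnover of the brakes at the protein level runs through ubiquitin ligases, whose genes Btrc (-0.21) and Cul4a (-0.24) fell, Fbxw11 (0.15) rose and Ddb1 (-0.062) did not pass. Sestrins also act with antioxidant proteins. Of 13 genes in a list of these and related genes 3 rose and 6 fell, where 29.0% of all tested genes rose and 28.6% fell. Srxn1, the sulfiredoxin that repairs peroxiredoxins, rose from 79.9 ± 3.25 to 146 ± 7.96 CPM (n = 3; log2 fold change 0.87; edgeR adjusted p = 4.7e-12). Sqstm1 (0.26), the adaptor through which sestrins promote breakdown of KEAP1, and Prdx3 (0.17) rose, and Prdx6 (-0.38) and Prdx2 (-0.18) fell. Txnip, named above and not itself an antioxidant gene, also fell. With the GC and length correction 5 of these 13 were higher, beside 31.7% of all tested genes. The NRF2 gene Nfe2l2 (-0.21) and Keap1 (-0.14) were lower, and Keap1 did not pass with the correction (edgeR adjusted p = 0.777).

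Genes with the profile most like that of each brake over the 6 samples were found by the Euclidean distance between centred log2 CPM values, among 10083 genes of at least 5 CPM. For Sesn2 these were Sf3b6, Mrpl12 and Tsfm, at distances of 0.0375 to 0.0431 log2 units. For Sesn1 they included Asap2 and Garre1 (0.0335 and 0.0365), and for Sesn3 Gcc2, Men1 and Dna2 (0.0317 to 0.0371). For Ddit4 they were Lancl2, Ppp4r1 and Ctbp1 (0.0218 to 0.0247), and for Deptor Zfp414, Bcs1l and Bcap29, at longer distances of 0.0807 to 0.106. With 6 samples in 2 groups such likeness is a description only.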

How the data were processed

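Messenger RNA of 6 samples of mouse aortic endothelial cells was sequenced from strand-specific dUTP libraries, per the labels' protocols. The authors deposited 1 table of estimated counts, not scaled to library size, in which 83.0% of values were whole numbers exactly, with no tolerance. Per the submitters' processing notes HISAT2 and genome build mm10 were used; the quantifier, annotation and strand setting are not given in the sources used here, and values of overlapping genes are uncertain. Each column was matched to its sample by title, with 0 left unmapped.

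Counts were rounded and compared in edgeR 4.0.16 (R 4.3.3) with TMM scaling, filterByExpr (minimum count 10, minimum total 15, 12277 genes kept) and the quasi-likelihood F-test, two-sided, with Benjamini-Hochberg adjustment over all tested genes and a threshold of 0.05. Standard errors are the log2 fold change divided by the square root of F. Sestrin sums and shares were tested by exact permutation of the samples. The 6 within-group pairs of samples differed beyond sampling noise (chi-square per degree of freedom 2.39 to 5.86). Coordinates and lengths are from GENCODE M21 on GRCm38, the assembly that mm10 names, which matched 15997 of 17067 symbols. Promoter sequences are from RefSeq on GRCm38.p6.

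The other settings tried were scaling by median-of-ratios or by totals only, keeping every gene with at least 1 count, keeping those of 5 CPM or more in 3 samples, DESeq2 1.42.0, limma-voom (limma 3.58.1), the replicate number as a block, each sample left out, and, added after seeing the data, removal of each sample's loess trend (span 0.3) on transcript GC content and length. The 10 genes and all lists were chosen with earlier results of these data known. All 10 are named; from each list up to 3 genes that rose and 3 that fell, with the smallest p-values, are named, any of the 21 regulators may be, and the text marks names outside this rule. Some genes that the rule names are not reported here.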

Additional observations from a re-analysis of the deposited data

How the results depend on the processing

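Rheb and Sesn3 passed upward under all 14 alternatives, with log2 fold changes of 0.20 to 0.26 and 0.10 to 0.15. The count of the 10 genes that were higher was 2 in each setting but the removal of the GC and length trend, where it was 4, and the count that were lower was 3 in the main comparison, 1 with that trend removed and 1 to 3 with a sample left out. With the trend removed the log2 fold changes were -0.017 for Ddit4, -0.057 for Tsc2, 0.14 for Mtor, 0.13 for Rptor and 0.14 for Sesn2, whose sign turned. Tsc1 was -0.096 without the filter and -0.11 in DESeq2, neither past the threshold. With 1 sample left out the values ran from -0.068 to 0.0090 for Sesn1, -0.078 to 0.020 for Sesn2, -0.017 to 0.13 for Deptor, -0.0059 to 0.029 for Rptor, 0.0062 to 0.077 for Mtor, -0.13 to -0.085 for Ddit4, -0.12 to -0.078 for Tsc1 and -0.17 to -0.10 for Tsc2. The cause of these shifts was not tested. Values of the summed sestrin level and of the Sesn2 share kept their direction in every alternative run for them. These were coding length, each sample left out and, for the sum, the other scalings. The GC and length correction was not run for the sum or the share. The replicate number as a block gave the same calls for the 10 genes, 2 higher and 3 lower. Over all genes it gave 29.5% higher and 29.1% lower, beside 29.0% and 28.6% in the main comparison. Deviations of same-numbered samples from their group means had correlations of 0.083, 0.052 and 0.0076, which were not compared with those of differently numbered samples. The main comparison did not take the numbers as pairs, and whether they mark pairs was not tested.

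The calls of Ddit4, Tsc1 and Tsc2 were each lost under 2 to 5 of the 14 alternatives. Among the lists, the TSC and Rheb relatives had 2 genes lower in 6 settings, where Rhebl1 passed, and 0 higher in 2. The mTOR complexes had 2 lower without saline replicate 3. Sesn1 and Deptor had the fewest counts of the 10 genes, 165 to 188 and 341 to 490 per sample.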
